A study of Mus musculus with 6 samples.

Results

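The open chromatin around 5 genes for membrane-bound complement regulators, Cd59a, Cd59b, Cd55, Cd46 and Cr1l, was compared between Stag2 WT and Stag2 KO mouse urothelial cells by ATAC-seq, an assay in which a transposase cuts accessible DNA. Every distinct interval of the 6 deposited peak lists that overlapped the RefSeq span of a member, widened by 20 kb on each side, was taken. This gave 201 of 1094985 distinct intervals, of which 42 lay in the window of Cd59a, 31 in that of Cd59b, 103 in that of Cd55, 39 in that of Cd46 and 21 in that of Cr1l. The windows of the neighbours Cd59a and Cd59b shared 20 of them, and those of Cd46 and Cr1l shared 15. The members were chosen by measured values, the fold ranks of the interval at the Cd59a start, which were better in the KO lists. These values are therefore given as a description without a test.

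The groups were 3 Stag2 WT libraries and 3 Stag2 KO libraries, all collected 1 week after TMX was first given and all labelled batch 1. Mice of both genotypes received TMX in the diet, so the WT libraries carry the treatment too. Urothelium was peeled, and viable GFP-positive cells (GFP+, DAPI-) were sorted, with 50000 cells used per condition. The labels call the libraries biological replicates but do not give the number of animals behind each, and do not name the Cre driver or the cells in which it acts. The p-values below therefore measure only how far these libraries lie apart, which may in part be technical. Stag2 is X-linked and encodes a part of cohesin, a ring of proteins that holds chromatin loops and sister chromatids.

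Complement is a cascade of serum proteins that deposits C3b on surfaces and ends in the membrane attack complex, a pore built around C9. Host cells protect themselves with membrane regulators. CD55 and CD59 are held in the membrane by a glycosylphosphatidylinositol (GPI) anchor, and CD55 takes apart the convertases that cleave C3 and C5, while CD59 blocks the insertion of C9. In the mouse the CD59 gene is duplicated in tandem: Cd59a is the broadly expressed copy, and Cd59b is known mainly from testis. Cr1l encodes Crry, a rodent regulator that limits C3 convertases on many cells, and mouse CD46, a cofactor for C3b cleavage, is known mainly from sperm. Epithelia that line hollow organs, the urothelium among them, carry such regulators on their surface.

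The 250 bases before the annotated start are shown for 4 members, because the start of Cd59a differed most between genotypes in coverage among the member starts and the members differ in base composition. Sequences are from RefSeq on GRCm38.p6, the assembly whose coordinates are those of mm10, and run 5′ to 3′ on the strand of the gene. All 5 members matched an entry by symbol. The capitals mark a match to a short motif, on either strand. The motifs were picked after the sequences had been seen.

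Cd59a, chr2:104095551-104095800, + strand, capitals CACCC elements: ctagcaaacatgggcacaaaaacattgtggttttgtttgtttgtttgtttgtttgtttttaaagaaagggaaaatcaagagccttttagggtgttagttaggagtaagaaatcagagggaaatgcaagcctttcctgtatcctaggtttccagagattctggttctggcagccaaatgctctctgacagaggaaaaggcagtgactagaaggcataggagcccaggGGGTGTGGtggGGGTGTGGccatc

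Cd59b, chr2:104070816-104071065, + strand, capitals a CTCF-type core: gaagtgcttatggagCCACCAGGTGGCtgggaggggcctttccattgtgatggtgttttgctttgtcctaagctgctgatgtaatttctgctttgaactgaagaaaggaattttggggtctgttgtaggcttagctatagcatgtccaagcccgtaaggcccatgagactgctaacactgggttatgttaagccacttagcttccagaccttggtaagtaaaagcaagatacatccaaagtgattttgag

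Cd55, chr1:130462745-130462994, - strand, capitals GC boxes: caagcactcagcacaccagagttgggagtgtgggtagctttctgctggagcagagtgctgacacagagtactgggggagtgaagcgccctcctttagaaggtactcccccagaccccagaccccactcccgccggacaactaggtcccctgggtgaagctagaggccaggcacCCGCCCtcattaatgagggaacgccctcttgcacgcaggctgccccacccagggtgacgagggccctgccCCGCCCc

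Cd46, chr1:195092249-195092498, - strand, capitals a CCAAT box: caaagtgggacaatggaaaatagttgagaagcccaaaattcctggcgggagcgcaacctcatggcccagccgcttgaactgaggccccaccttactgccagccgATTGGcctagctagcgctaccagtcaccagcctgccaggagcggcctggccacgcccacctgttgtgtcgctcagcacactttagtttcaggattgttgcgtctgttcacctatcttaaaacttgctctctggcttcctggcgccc

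The Cd59a sequence held 2 copies of the CACCC element (searched as CCACNCCC), a short GC-rich motif of many tissue-specific promoters, with first bases at -24 and -13 from the start. At least 1 copy was found in 15.9% of 32851 RefSeq promoter sequences of the same length, and at least 2 copies in 2.81%. The Cd59a sequence contained 0 CpG dinucleotides, as did 7.87% of promoters, and had a GC content of 44.8% against a median of 52.4% over all promoters. The Cd59b sequence was similar in composition, with 45.6% GC and 1 CpG, and held a match to a CTCF-type core (CCA, 2 free bases, AGG, 1 free base and GGC) at chr2:104070831-104070842, its first base at -235. CTCF is the factor at which cohesin commonly stops on DNA, and 0.816% of promoters held this core. Cd55 and Cd46 had more CpG dinucleotides, 8 and 10, and GC contents of 64.0% and 56.8%. Cd55 held 2 GC boxes (GGGCGG, in 32.7% of promoters) at -77 and -7, and Cd46 held a CCAAT box (in 33.8%) at -146. The sequence of Cr1l, with 41.6% GC and 5 CpG, held none of the motifs searched. The E2F core (GGCGGGA, in 9.75% of promoters) was found at -124 in Cd55, where it overlapped a CACCC element that began at -128, and at -207 in Cd46. Cd46 also held a CACCC element at -97. The cell-cycle element CHR (TTTGAA, in 16.0%) was found in Cd59b at -159. The AP-1 site (TGANTCA, in 6.75%) and the TATA box (TATAAA, in 12.4%) were found in 0 of the 5. These matches describe letters in the reference and were not tied to binding of any factor.

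The lists held 181987 to 299636 peaks, or 149153 to 260462 distinct intervals, with fold values given by the authors' peak caller. Fold depends on depth, so intervals were ranked by fold within each list (rank 1 is the best) and the best 100000 of each list were compared. The list of KO replicate 1 started at a −log10 p of 3.00 and the other lists at 2.00. The coverage of background sequence, read from fold and p, ran from 5.89 to 7.98 overlapping reads. Among the best 50000 intervals, those at a gene end were 18.2% to 19.0% in WT lists and 19.1% to 21.2% in KO lists (exact permutation test, two-sided, p = 0.1, the smallest that 3 against 3 allows). Gene starts as a whole ranked slightly better in KO. The median gain over 13703 tested gene starts was 0.24 on the log2 scale, where 1 is a rank better by a factor of 2. A start was annotated for 10974 of them, and the better ranked gene end stands for the start in the rest. Stag2 had no annotated start, so its better ranked gene end was used. There the ranks were 29586, 34076 and 28720 in WT replicates 1 to 3 and 16287, 20829 and 26329 in KO replicates 1 to 3. An interval at this gene end does not check the deletion of the gene. The gain of 0.57 ± 0.31 (SE) had an adjusted p of 0.411 (limma, Benjamini-Hochberg over all starts).

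Marker genes of cell types were counted where an interval of the best 100000 lay within 500 bp of the start. The better ranked gene end was used where no start was annotated. An annotated start was used for 10 of 14 urothelial, 3 of 6 fibroblast and 3 of 4 smooth muscle markers. It was used for 2 of 4 endothelial and 4 of 6 immune markers. Of 14 urothelial markers, 10 had such an interval in all 6 libraries, and Trp63 had none. Krt5 had one in KO replicates 1 and 2, Krt18 in the 3 KO libraries alone, and Grhl3 in WT replicate 1 and KO replicates 1 and 2. By library the markers with one numbered 11, 10 and 10 in WT and 13, 13 and 11 in KO, so the genotypes overlapped. Among immune markers, Ptprc, Cd3e and Lyz2 had none in any library, and Cd68 and Csf1r had one in all 6. Csf1r ranked at 42304, 32040 and 24732 in WT and at 56453, 43329 and 47948 in KO. Its gain was -0.60 ± 0.27 (SE, limma adjusted p = 0.363), and that of Cd68 was -0.09 ± 0.33 (limma adjusted p = 0.922). Among 4 endothelial markers 0, 1 and 0 had an interval in WT replicates 1 to 3, and 4, 2 and 1 in the KO replicates. Their coverage over the library background, summed over intervals of any rank, was 9.61 to 16.0 in WT and 15.3 to 34.7 in KO, so the genotypes overlapped slightly. For 6 fibroblast markers the sums were 39.8 to 55.6 in WT and 14.7 to 34.8 in KO, which did not overlap. How often sums over other genes separate so was not computed. Of the fibroblast markers 2 had no interval in the best 100000 of any library. Of the 3 tested, Col1a1 and Col3a1 had gains of -0.57 and -0.67, and Col1a2 one of 0.36. For 4 smooth muscle markers the sums were 42.9 to 64.2 and 32.4 to 58.4. For the urothelial markers they were 463 to 1298 and 678 to 1814, in WT and KO in that order. Of 12 tested urothelial markers, 5 had KO ranks all better, against 16.9% of all starts. The gains of the 12 ran from -0.22 at Upk1a to 1.53 at Upk1b. The part of these lists in the results at the members was not tested. In bulk libraries, a larger share of cells with an open start and a more open start in each cell cannot be told apart.

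The Cd59a start (Entrez gene 12509, start at chr2:104095801, + strand) lay inside an interval in every library, merged to chr2:104095662-104096276. Its fold ranks were 31308, 21910 and 26503 in WT replicates 1 to 3 and 11584, 14154 and 8033 in KO replicates 1 to 3. All 3 KO libraries ranked it better than any WT library. The gain was 1.26 ± 0.37 (SE, n = 3 and 3), and gains at least as large were found at 273 starts, or 1.99% of those tested. Ranked by p in place of fold, the same start stood at 39878, 30119 and 33362 in WT and at 10372, 9889 and 9146 in KO, a gain of 1.81 ± 0.30, and KO ranks by p were all better at 11.6% of starts. Against other gene starts of the same list only, the gain was 0.93 ± 0.31.

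The fold itself was 10.4, 21.1 and 13.9 in the WT replicates and 20.3, 25.2 and 21.3 in the KO replicates. On this scale WT replicate 2 lay inside the KO range. The coverage at the summit, which could be solved as a whole number from fold and p, was 102, 244 and 147 overlapping reads in WT and 470, 664 and 367 in KO. Divided by the background coverage of each library it was 13.4, 38.3 and 21.3 in WT and 58.9, 112.6 and 53.3 in KO. Every KO library was above every WT library, as at 0.269% of 13758 gene starts. The libraries differed at gene starts in general, with median log2 coverages over background from 4.99 to 6.82, so each value was also set against the median gene start of its own library. On this centred log2 scale Cd59a stood at -1.24, -1.02 and -0.86 in WT and at 0.14, -0.00 and 0.43 in KO. By coverage the Cd59a start therefore lay below the median gene start in WT cells and about at it in KO cells. KO was again above WT in every library, as at 9.42% of starts. This median is over the 13758 starts with a coverage value in every library, out of 21887 coding genes. By fold, Cd59a ranked 8168, 4856 and 6563 among gene starts of the same list in WT replicates 1 to 3. It ranked 4252, 3605 and 2432 in KO replicates 1 to 3. With 13703 starts tested, Cd59a was by fold below the median start in WT replicate 1 but not in WT replicates 2 and 3. The centred difference was 1.23 ± 0.17 (SE), a 2.34-fold higher coverage in KO, the eighth largest of all gene starts (0.0581% were at least as large). It ranged from 1.11 to 1.32 when each library was left out in turn. Coverage was solved from the fold and p of this interval, whose fold ranks made the choice, so it is no independent check.

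The local background of the interval, the coverage that the peak caller expected there, also differed. It was 8.91, 10.6 and 9.66 at Cd59a in WT and 22.2, 25.4 and 16.3 in KO. The groups did not overlap, as at 1.13% of gene starts, and the ratio of the means was 2.19, against a median ratio of 1.19 over all starts. Ratios at least as large were found at 3 of 13758 starts (0.0218%). By construction fold is the coverage over this local value, with 1 added to both. The local value was solved from the same fold and p as the coverage, so it is no independent check either.

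The summit of the Cd59a interval also stood at different bases. It lay 38, 41 and 37 bp after the start in WT replicates 1 to 3 and 67, 72 and 61 bp after it in KO replicates 1 to 3. The nearest WT and KO summits were 20 bp apart, and the mean shift was 28 bp downstream. Summits of the genotypes lay at least 20 bp apart at 1.22% of gene starts, and at 0.254% they did so while staying within 20 bp in each genotype. At 20 starts (0.145%) the centred coverage was also higher in every KO library, and Cd59a had the largest centred difference of these, before Ypel5 with 1.05. The cut of 20 bp equals the gap at Cd59a itself. Centred coverage was solved from the interval whose fold ranks made the choice. These shares and this place therefore describe Cd59a and are no test. All of these summits lie after the printed bases, which end at the base before the start.

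**Figure D1:**
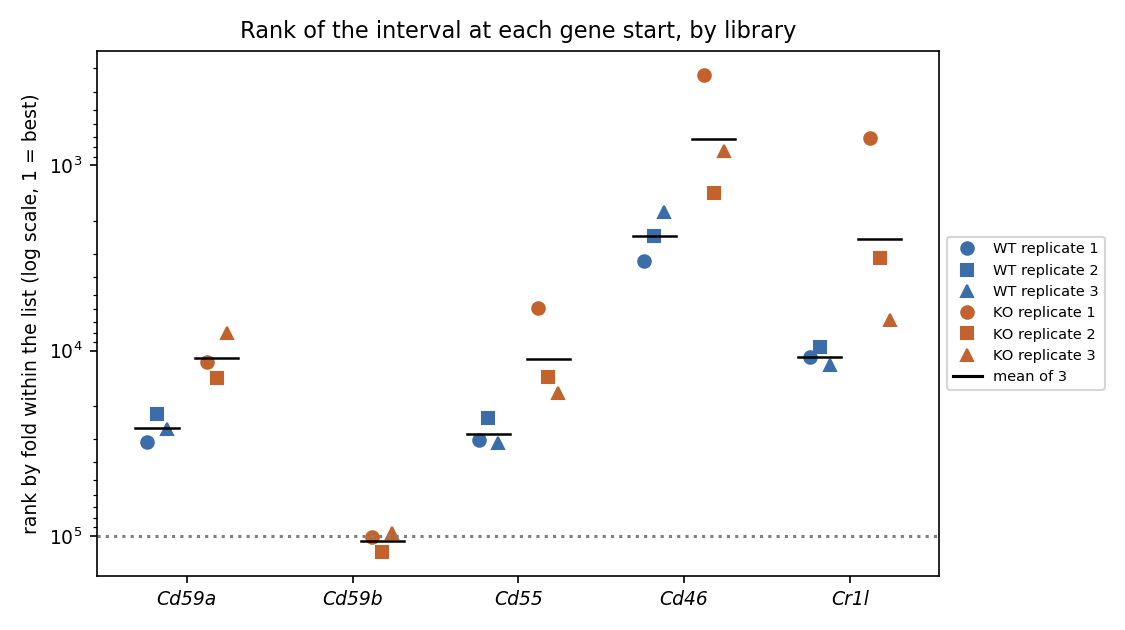
Rank by fold of the interval at each member's start (log axis, better ranks at the top) in the 3 WT (blue) and 3 KO (orange) libraries, with the geometric mean of 3 as a bar and the list length of 100000 as a dotted line. KO ranks are better than WT ranks at Cd59a, Cd55, Cd46 and Cr1l. At the annotated Cd59b start only KO lists hold an interval, near rank 100000.

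Cd59b (Entrez gene 333883, start at chr2:104071066, + strand) had no interval within 500 bp of this annotated start in any WT list, at any rank. In the KO lists it had a weak one, at ranks 101858, 122054 and 96792 and with 35, 22 and 31 overlapping reads at the summit, 4.39, 3.73 and 4.51 times the library background. All 3 were near or beyond the end of the best 100000, so the start could not be tested. The merged interval, chr2:104070740-104070948, contains the CTCF-type core printed above. Of 159088 regions found in at least 3 whole lists, 1.06% were listed in all 3 KO lists and no WT list, and 2.00% in all 3 WT lists and no KO list. A second region, chr2:104069643-104070232, lies at -1128 bp from the annotated start. It contains the 5′ edge of the gene's span, at chr2:104069781, and had an interval in all 6 libraries. Its ranks were 90775, 42152 and 58142 in WT and 40635, 40439 and 65651 in KO, which overlapped, with a gain of 0.35 ± 0.34 (limma adjusted p = 0.625). The copies are related in sequence, and how reads that fit both were placed is not given in the sources used here.

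Cd55 (Entrez gene 13136, start at chr1:130462744, - strand) had ranks of 30538, 23026 and 31594 in WT and 5888, 13977 and 16980 in KO. All KO ranks were better than the WT ranks. The gain was 1.33 ± 0.42 with a limma adjusted p of 0.317, so it did not pass the threshold. In centred coverage Cd55 stood at 0.19, 0.52 and 0.35 in WT and 0.74, 0.61 and 0.40 in KO. Here the genotypes overlapped, through KO replicate 3 and WT replicate 2, and the difference was 0.23 ± 0.14 (limma adjusted p = 0.359).

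Cd46 (Entrez gene 17221, start at chr1:195092248, - strand) had the best ranked start of the members in every library. Its ranks were 3287, 2420 and 1783 in WT and 324, 1410 and 836 in KO. The KO ranks were again all better, with a gain of 1.74 ± 0.90 (limma adjusted p = 0.395), and KO replicate 1 held the best. By p the ranks were 5342, 2137 and 2441 in WT and 2615, 2728 and 2640 in KO. They overlapped, and the gain was 0.19 ± 0.42 (limma adjusted p = 0.782). In centred coverage Cd46 stood at 0.68, 1.09 and 1.19 in WT and 0.89, 0.73 and 1.04 in KO, a difference of -0.10 ± 0.15 (limma adjusted p = 0.722) that ran the other way.

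Cr1l (Entrez gene 12946, start at chr1:195131570, - strand) had ranks of 10877, 9605 and 11978 in WT and 714, 3179 and 6810 in KO. All KO ranks were better, and the 3 KO libraries were spread more widely than the WT libraries. The gain of 2.11 ± 0.74 was the largest of the members (limma adjusted p = 0.331). By p the gain was 0.65 ± 0.37 (limma adjusted p = 0.309). Centred coverage at Cr1l was 0.15, 0.27 and 0.10 in WT and 0.42, 0.17 and 0.19 in KO, which overlapped, with a difference of 0.09 ± 0.13 (limma adjusted p = 0.707).

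Apart from Cd59a, whose ranks made the choice, 3 member starts were tested, Cd55, Cd46 and Cr1l. KO ranks were all better than WT ranks at each, as at 16.9% of all starts, and 0 were called by limma. Over all starts 5 were called higher in KO (0.0365%) and 4 lower (0.0292%), or 3 and 2 with the replicate number as a block, while 1655 (12.1%) and 194 (1.42%) had an unadjusted p under 0.05. In centred coverage 0 starts were called in either direction, with 1041 (7.57%) higher and 1564 (11.4%) lower at an unadjusted p under 0.05. Leaving out KO replicate 3, the KO library whose gene-end share was nearest to WT, brought Cd55 (1.63, adjusted p = 0.0445, limma) and Cr1l (2.84, adjusted p = 0.0458, limma) past the threshold, in a fit that called 887 starts higher and 74 lower. Fitted with each library's share of gene ends as covariate, the gain was 1.96 ± 0.58 (SE) at Cd59a and 0.70 ± 0.70 at Cd55. It was 1.85 ± 1.66 at Cd46 and 0.44 ± 1.24 at Cr1l. The limma adjusted p was 0.99997 at each of Cd55, Cd46 and Cr1l. That share was higher in every KO list than in any WT list, so this fit can hardly separate it from genotype.

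The order of the members thus depended on the measure. By fold rank, gains at least as large as that of Cd55 were found at 1.55% of starts, as that of Cd46 at 0.452% and as that of Cr1l at 0.204%, all fewer than for Cd59a. By centred coverage, 22.5% of starts were at least as high as Cd55, 62.8% as Cd46 and 39.5% as Cr1l. The local background differed little at these 3, with KO to WT ratios of 1.04, 0.98 and 0.99. Their summits stayed in place as well. The KO and WT summits overlapped in position at each, while they did not at 15.6% of all starts. They lay at means of 180 and 171 bp after the start for Cd55, -118 and -122 bp for Cd46 and 491 and 487 bp for Cr1l, in WT and KO in that order.

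**Figure D2:**
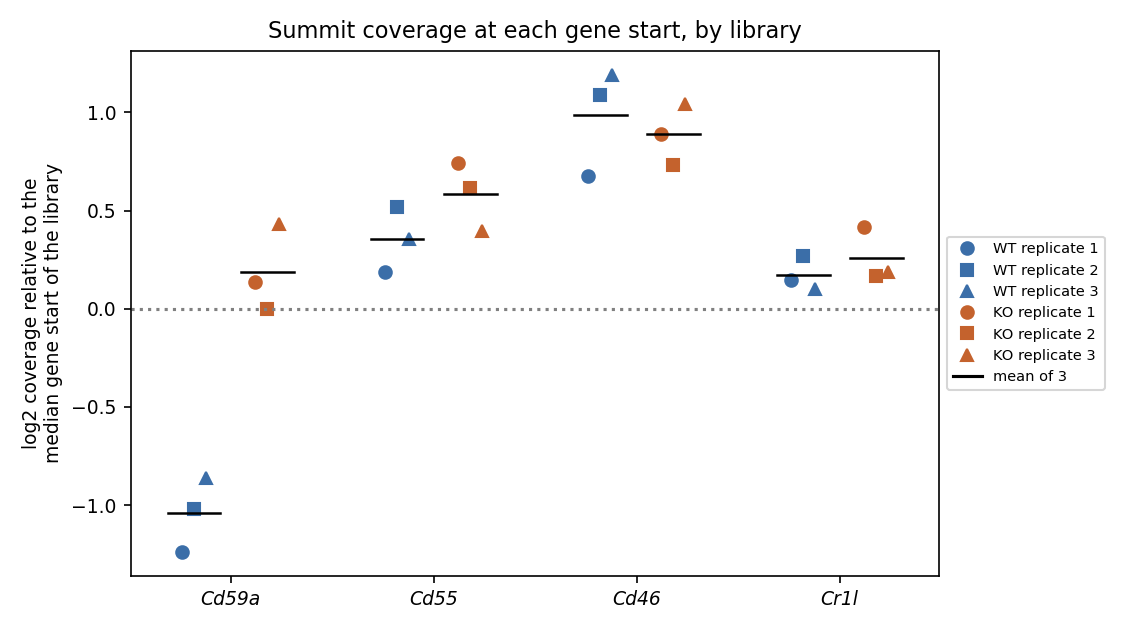
Log2 summit coverage at the starts of 4 members, relative to the median gene start of each library (dotted line at 0), in 3 WT (blue) and 3 KO (orange) libraries, with the mean of 3 as a bar. Cd59a lies between -1.24 and -0.86 in WT and between -0.00 and 0.43 in KO, while the genotypes overlap at the other members.

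**Figure D3:**
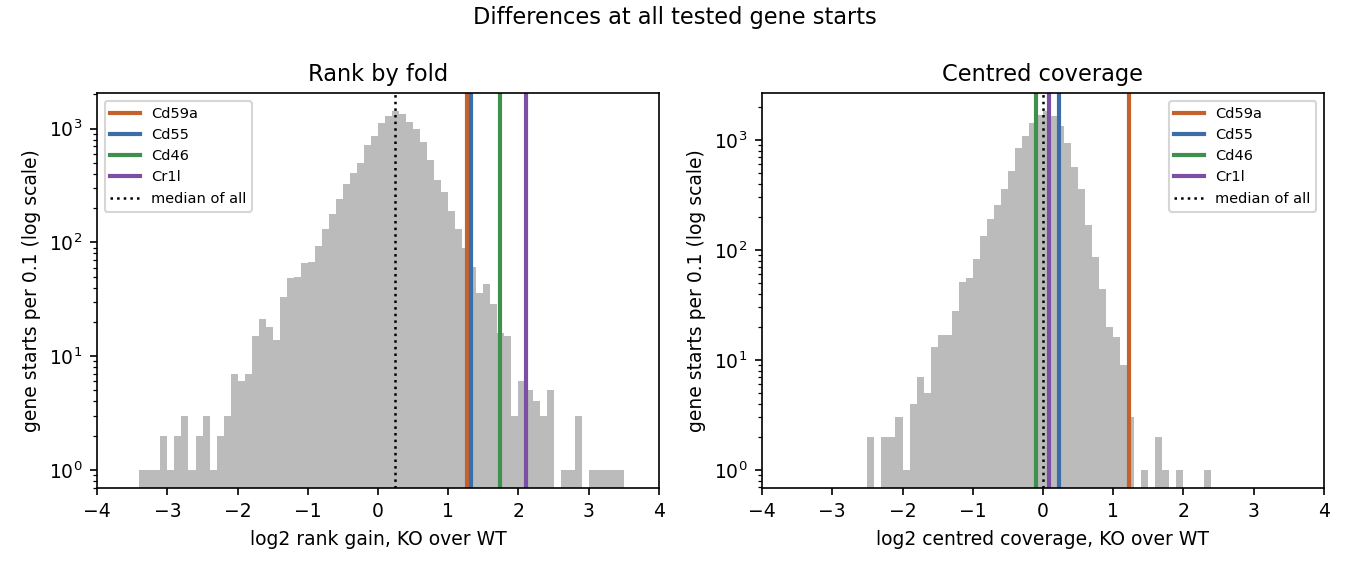
Distribution of the KO over WT difference at all tested gene starts (bars, log count axis), by fold rank at the left (13703 starts) and by centred coverage at the right (13758 starts), with 4 members as coloured lines and the median as a dotted line. By rank all 4 lie in the right tail, and by centred coverage only the Cd59a line at 1.23 does.

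The 201 intervals merged to 51 regions, of which 16 were in all 6 whole lists. In the best 100000 there were 25 regions, and 18 had an interval in at least 3 libraries. Without the Cd59a start, which is not tested, 17 remained. Their gains were positive in 9 and negative in 8, with a median of 0.06 against 0.02 over all 100565 regions tested, and 0 were called, against 12 higher (0.0119%) and 9 lower (0.00895%) over all regions, or 16 and 16 with the replicate block. Of the 17, 5 had an unadjusted p under 0.05, against 6.97% of all regions higher and 7.84% lower, and limma adjusted p-values ran from 0.276 to 0.949. All KO ranks were better at 3, which were the starts of Cd55, Cd46 and Cr1l, and all were worse at 1. Over all regions the shares were 11.4% and 8.17%.

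Downstream of the Cd59a start the pattern was mixed. At chr2:104102734-104103133, inside the Cd59a span and 7132 bp after its start, the ranks were 68666, 23283 and 29895 in WT and 19832, 9620 and 23832 in KO. WT replicate 2 lay inside the KO range, and the gain was 1.13 ± 0.49 (limma adjusted p = 0.326) while centred coverage differed by 0.34. At chr2:104122285-104123408, which covers the start of the neighbouring gene A930018P22Rik 27045 bp from the Cd59a start, the ranks were 23597, 27903 and 29404 in WT and 24416, 20054 and 35218 in KO. These overlapped fully, with a gain of 0.06 ± 0.34 (limma adjusted p = 0.949). At the intergenic region chr2:104134427-104134924, 38874 bp from the Cd59a start, KO ranks of 51117, 34479 and 29632 stood against WT ranks of 29934, 19640 and 22793. This was a gain of -0.65 ± 0.35 (limma adjusted p = 0.389), and the groups overlapped only through KO replicate 3 and WT replicate 1. The region chr2:104125625-104126041, picked out after its values were seen, had ranks of 96397 and 68333 in WT replicates 2 and 3, none in the best 100000 of WT replicate 1, and 48232, 78058 and 52141 in KO, a gain of 0.58 ± 0.25 (limma adjusted p = 0.319). The differences of centred coverage at these 3 regions were -0.02, -0.78 and 0.63, so regions on both sides of 0 lay within the Cd59a window.

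**Figure D4:**
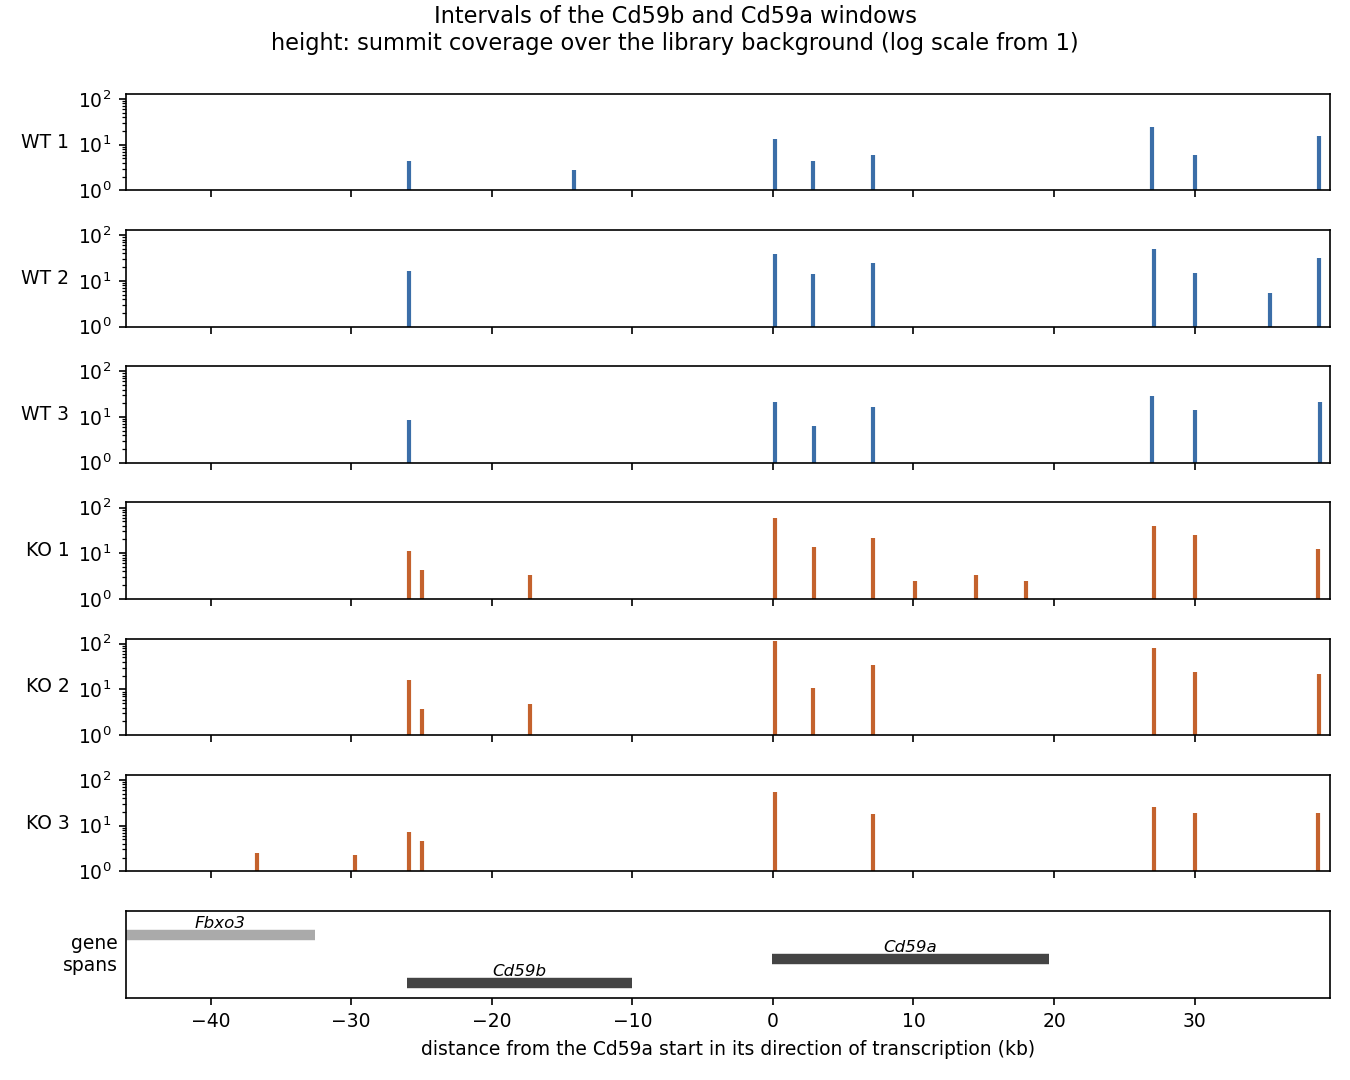
Intervals of the whole lists in the windows of Cd59b and Cd59a by library, at their distance from the Cd59a start in kb, with the summit coverage over the library background as height (log axis from 1) and the gene spans below. The stem at the Cd59a start runs from 13.4 to 38.3 in WT and from 53.3 to 112.6 in KO. The weak stem at the annotated Cd59b start is present only in the KO libraries.

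The Cd55 window held the most intervals, and KO replicates 1 and 2 had fewer of them than any WT library. The whole lists had 19, 20 and 24 intervals there in WT and 9, 12 and 19 in KO, with WT replicate 1 and KO replicate 3 at the same number. Each KO library had fewer than the WT library of its number (difference -7.67, exact permutation p = 0.2, adjusted p = 0.4 over 4 windows; over the 3 pairs exact p = 0.25, the smallest possible). Within the best 100000 the numbers were 5, 6 and 8 in WT and 2, 4 and 8 in KO, a mean difference of -1.67 (exact permutation test, two-sided, p = 0.5, adjusted p = 1 over 4 windows, smallest p possible 0.1, and p = 0.5 over the pairs). The means of the other windows differed by 0.33 for Cd59a (not tested) and by 0.33 for Cd59b, -0.33 for Cd46 and 0 for Cr1l (exact permutation p = 1 for each). In whole lists the Cd59b window held 5, 4 and 4 intervals in WT and 6, 6 and 6 in KO, which did not overlap. The KO-only interval at the annotated Cd59b start was among them. KO replicate 3 reached 6 through weak intervals that no other list held, with 17 and 16 overlapping reads at the summit. How often other gene windows separate so was not computed. The difference of 1.67 had an exact permutation p of 0.1, the smallest possible, an adjusted p of 0.4, and an exact p of 0.25 over the pairs. Whole lists differ in length, and that of KO replicate 1 is the longest. The part of list length in these numbers was not tested.

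Inside the Cd55 span, at chr1:130438266-130438589 and 24316 bp after the start, the ranks were 89067, 66175 and 69597 in WT and 90820 and 98751 in KO replicates 2 and 3, with none in the best 100000 of KO replicate 1. All 3 KO libraries ranked it worse, the only tested member region of that kind. Its coverage over background was 6.19, 10.2 and 11.3 in WT and 3.76, 5.77 and 4.36 in KO. The gain of -0.38 ± 0.16 had a limma adjusted p of 0.320. Upstream of the annotated start but within the span, at chr1:130463814-130464607, an interval stood at ranks 48721, 85577 and 48323 in WT and at 57532 in KO replicate 3, and was not among the best 100000 of KO replicates 1 and 2 (gain -0.50 ± 0.30, limma adjusted p = 0.426). Farther upstream, at chr1:130474261-130474578 and -11675 bp from the start, the gain was 0.93 ± 0.43 (limma adjusted p = 0.344), with no WT replicate 1 interval in the best 100000, ranks of 35599 and 52697 in the other WT libraries and of 29298, 20336 and 45100 in KO. A further region within the Cd55 span, chr1:130443029-130443341, picked out because a single genotype held it, was listed in the 3 WT lists alone, at ranks 102767, 132972 and 124614, beyond the best 100000.

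**Figure D5:**
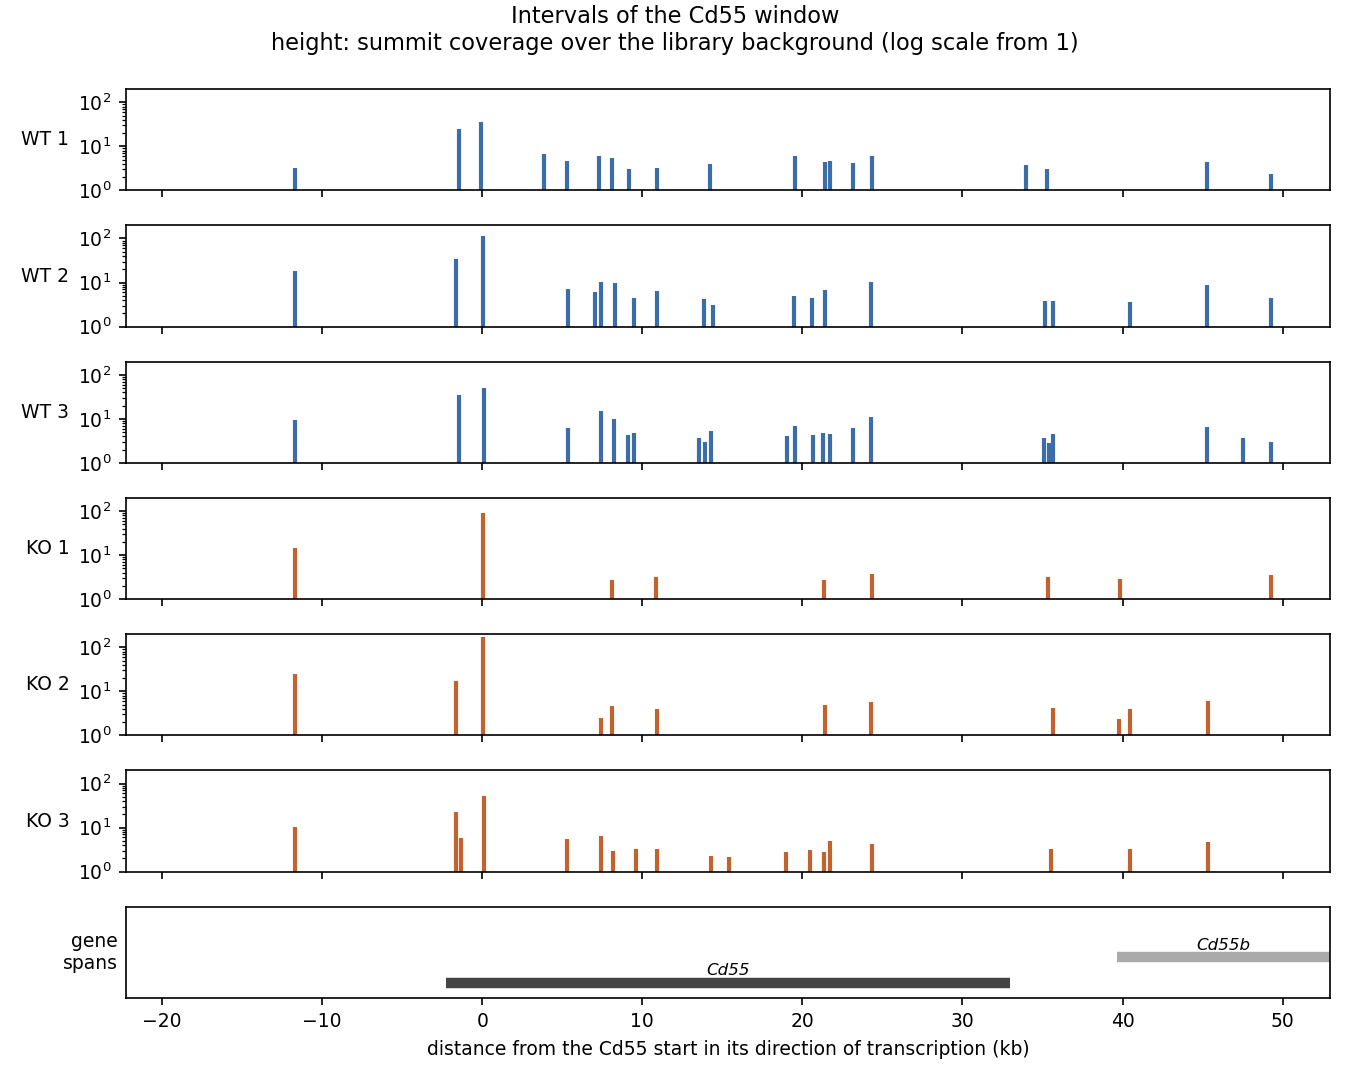
Intervals of the whole lists in the Cd55 window by library, at their distance from the Cd55 start in kb, with the summit coverage over the library background as height (log axis from 1) and the gene spans below. Within the gene but away from its start, the WT libraries show more stems than KO replicates 1 and 2, while KO replicate 3 shows about as many as WT replicate 1.

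Cd46 and Cr1l lie next to each other on chromosome 1. Beyond the 3′ end of Cd46, at chr1:195033786-195034341 and 58184 bp from its start, the ranks were 20026, 1556 and 16132 in WT and 1138, 3969 and 5233 in KO. WT replicate 2 stood far from the other WT libraries and within the KO range, and the gain was 1.47 ± 0.97 (limma adjusted p = 0.467). Within the Cd46 span the region chr1:195040506-195040764 had a gain of -0.42 ± 0.37 (limma adjusted p = 0.585), with ranks of 74584, 31031 and 31405 in WT and 66024, 55809 and 47391 in KO. At chr1:195065157-195065535, also within Cd46, the ranks were 62895 and 72586 in WT replicates 1 and 3 and 96212 in KO replicate 3, with no other library in the best 100000 (gain -0.36 ± 0.18, limma adjusted p = 0.365). The region chr1:195080119-195080360, in both windows, was at rank 92938 or worse wherever it was listed (gain -0.03 ± 0.11, limma adjusted p = 0.918). WT replicate 1 and KO replicate 3 held no interval there at any rank. The region chr1:195100866-195101030, in the Cr1l span, was found in the best 100000 of KO replicate 1 only, at rank 88870. The exon or intron position of these regions is not given because only gene spans were used.

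The wider complement system was examined through 42 other genes. A start was annotated for 30 of them, and the better ranked gene end was used for the rest. Within the best 100000, 20 had an interval there in at least 3 libraries and 16 in all 6, while 16 had none. Of 21887 coding genes, 13703 had one in at least 3 libraries. The gains of the 20 were positive in 11 and negative in 9, with a median of 0.13 against 0.24 over all starts. By limma 0 were called, with 3 at an unadjusted p under 0.05. Over all starts such a p was found at 12.1% with a gain above 0 and at 1.42% with one below 0. By role, 3 of 6 tested genes of the classical and lectin pathways had a positive gain, 0 of 2 of C3 and the alternative pathway, 1 of 2 of the terminal pathway, 3 of 4 fluid-phase regulators, 3 of 5 receptors and 1 of 1 other membrane regulator. The smallest p in each direction belonged to Susd4, a membrane complement inhibitor, and to C1s1, a protease of the C1 complex. Susd4 had ranks of 77731, 66889 and 90271 in WT and 36223, 43558 and 67503 in KO, a gain of 0.71 ± 0.25 (limma adjusted p = 0.331), with one overlap between the groups. C1s1 had ranks of 27220, 55283 and 27530 in WT and 96804, 74298 and 44181 in KO, a gain of -0.98 ± 0.33 (limma adjusted p = 0.321), also overlapping. Cd55b, the tandem copy of Cd55, had no interval at its start in the best 100000, and Cr2, the complement receptor gene near Cr1l, had a gain of 0.67 ± 0.39.

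The anchor that holds CD59 and CD55 is made by the products of another gene group. All 18 genes of GPI anchor synthesis and transfer examined had an interval in all 6 libraries, at the annotated start for 14 and at the better ranked gene end for Pigm, Pigg, Pigk and Gpaa1. The gains were positive in 13 and negative in 5, with a median of 0.34 against 0.24 over all starts, and they ran from -0.43 at Pigs to 1.36 at Pigg. In 4 of the 18 all KO ranks were better, against 16.9% of all starts, and 0 were called by limma (3 at an unadjusted p under 0.05). Over all starts such a p was found at 12.1% with a gain above 0 and at 1.42% with one below 0.

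By the distance between centred profiles of log2 fold ranks over the 6 libraries, the starts most like Cd59a were those of Phyhipl (0.356), Crygn (0.427), Mark4 (0.502), Ndufb4 (0.542) and Pygl (0.545). Phyhipl ranked at 22280, 18434 and 20983 in WT and 8093, 12692 and 7211 in KO. In centred coverage, which is solved from the same fold and p and is thus no independent check, their KO over WT differences were 0.77, 1.60, 0.83, 0.36 and 0.47 in the same order, beside 1.23 for Cd59a.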

How the data were processed

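ATAC-seq peak lists of 3 Stag2 WT and 3 Stag2 KO libraries were used, 1 deposited narrowPeak list per library, called on that library alone. The submitters' processing notes name mm10 and DiffBind. The sources used here name neither the aligner nor the peak caller. Each peak in the deposited files carries a fold over local background (a ratio), a −log10 p, a −log10 q and a summit, and a display score deposited by the authors that was not used in any test.

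Peaks sharing an interval were reduced to 1 with its best fold and p. Intervals were ranked by fold, the best 100000 per list were kept, and intervals overlapping by at least 1 bp were merged to regions. An absent region got rank 100001. Regions, and gene starts within 500 bp of an interval, were tested if 3 libraries had one, with limma 3.58.1 in R 4.3.3 on −log2 ranks (moderated variances, trend, two-sided, Benjamini-Hochberg adjustment at 0.05). Of 21887 coding genes 17492 had a RefSeq start on GRCm38.p6, and for the rest the better ranked end was used. Member windows were compared by exact permutation tests. Coverage was solved from fold = (k + 1) / (λ + 1) and the Poisson tail, with whole k within 0.002 in −log10 p for at least 99.999% of peaks. Coverage and its centring were added after seeing the data. Depth limits which weak intervals were listed.

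The members and gene lists were chosen with earlier results of these data known. Named regions were the start and the 3 best ranked regions of each window, whatever their genotype difference. A region near A930018P22Rik and those held by a single genotype were named after their values were seen. Named complement genes were those with the smallest p in each direction, and 5 starts were named by likeness. A gene of the immune markers is not reported here. Samples with the same replicate number deviated together (correlations 0.105, 0.557 and 0.401), a pairing read from the data and not from the labels. WT replicate 1 also correlated with KO replicate 3 (0.318), more than with KO replicate 1, and the labels give KO replicate 3 a library name with another number, so the pairing is uncertain. The fits were also run on simulated lists, copies of a single WT list with independent noise and with changes put in at known regions. These copies lack the differences between whole libraries seen in the real lists, so they do not show how the fits behave under them. Python 3.11.15, NumPy 2.4.6, pandas 2.3.3, SciPy 1.17.1, matplotlib 3.10.9 and bedtools 2.31.1 were used.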

Additional observations from a re-analysis of the deposited data

How the results depend on the processing

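The gain at Cd59a was positive under each of the 23 alternatives, from 0.93 to 1.96 on log2 scales. All of them reread the intervals whose fold ranks made the choice, so this range describes Cd59a and is no independent check. In the fits over regions no member region was called under any of 15. Counts of calls over all features were less stable. Regions called higher and lower numbered 31 and 21 by p rank, 2 and 2 in the best 50000 and 21 and 19 in the best 140000. They numbered 0 and 0 with the gene-end share as covariate or when all 6 libraries were required. With the replicate block they numbered 16 and 16. Leaving out 1 library gave 1 to 837 higher and 1 to 1579 lower. Gene starts called higher and lower numbered 3 and 1 by p rank, 0 and 1 in the best 50000, 3 and 2 with linear ranks and with the replicate block, 0 and 0 with the covariate, when ranked among gene starts, and in coverage with or without centring, and 3 were higher within 1000 bp. Leaving out 1 library gave 0 to 887 higher and 0 to 117 lower, or 0 to 1164 and 0 to 1904 in centred coverage (9 lower without WT replicate 2), the highest without KO replicate 3 except the 117 (without WT replicate 2). The replicate block changed no other call. The complement list had 2 calls without WT replicate 2 or KO replicate 3, and the GPI list 1 without KO replicate 3. Cd46 fell in centred coverage (-0.10), and stood at -0.25 and -0.046 there when WT replicate 1 or 2 was left out and at -0.098, -0.019 and -0.18 when KO replicate 1, 2 or 3 was. With the covariate, gains turned at chr1:130455113-130455759 (0.48), chr1:130463814-130464607 (0.064), chr1:195040506-195040764 (0.25) and chr2:104122285-104123408 (-0.62). Without 1 library they turned at the first (0.14 without WT replicate 3, 0.047 without KO replicate 1 or 2, all between -0.20 and 0.14) and at the last (-0.01 without WT replicate 3, -0.13 without KO replicate 2, all between -0.13 and 0.28). Interval numbers differed by -0.17 at Cd59a without WT replicate 1 (up to 0.83 without another library), and by 1.67 at Cd59b and -7.67 at Cd55 in whole lists. The cause was not tested.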
